A study of Mus musculus with 2 samples.

Results

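Endothelial cells line the blood and lymphatic vessels of a tumor, and 123 of them were found among the 25402 cells kept from 2 libraries of MC38 tumors. The Lmo7+/+ library held 71 and the library labelled Lmo7-/- held 52. Members were chosen by raw counts of unique molecular identifiers (UMIs), where 1 UMI stands for 1 captured RNA molecule. Cells with fewer than 500 genes or 1000 UMIs, or with over 15% of their UMIs from mitochondrial genes, had been left out. A kept cell was taken as endothelial when Pecam1, Cdh5, Kdr, Egfl7 and Plvap together gave at least 4 UMIs, with at least 1 from Cdh5. It also had to hold no UMI of the pan-leukocyte gene Ptprc, at most 2 UMIs of the macrophage complement genes C1qa, C1qb and C1qc together, and under 2% of its UMIs from the collagen genes Col1a1, Col1a2 and Col3a1.

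Single-cell RNA sequencing on a droplet platform was run on tumors of MC38, a mouse colon cancer line, grown under the skin of wild-type (Lmo7+/+) hosts and of hosts with a genomic knockout of Lmo7 (Lmo7-/-), a gene for a LIM domain protein at cell junctions and the actin cytoskeleton. For its tumor models the study used female mice of 6 to 8 weeks on the C57BL/6 background, the labels name no agent given to either group, and the implanted MC38 cells are the same line in both. Tumors were dissociated into single cells, and live cells were sorted before loading. Each genotype was 1 library, and the number of tumors behind it is not given in the sources used here, so the genotypes could not be tested against each other. Every interval below is a 95% interval that covers counting error only.

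The deposited tables held 16208 cells with 98582479 UMIs for Lmo7+/+ and 15163 cells with 80648345 UMIs for Lmo7-/-, of which 13542 and 11860 cells passed the filters. The endothelial cells carried 346607 and 260305 UMIs. Their median was 3197 UMIs and 1677 genes in the Lmo7+/+ library and 3388 UMIs and 1631 genes in the library labelled Lmo7-/-, and single cells ranged from 1021 to 18198 and from 1030 to 26016 UMIs. The median mitochondrial share was 4.94% and 4.82%. The 2 libraries shared 279 cell barcodes, 175 of them among kept cells, and none of these was an endothelial cell.

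Lmo7 itself, at chr14:101729957-101934710 on the + strand (GRCm38, GENCODE M21), gave 15 counts in Lmo7+/+ endothelial cells, against 9 in the 52 cells that carry the knockout label. These were 43.3 and 34.6 counts per 1000000 UMIs (CPM), a log2 ratio of -0.32 with an interval from -1.70 to 0.96. Macrophages gave 52 and 47 counts, and the other Ptprc-negative cells (no UMI of Ptprc or of the 5 gate genes, at most 2 C1q UMIs and under 2% collagen UMIs), where MC38 cells would be found, gave 861 and 519. The part of the gene that was deleted is not given in the sources used here, so these reads do not check the label, and the second group is called by its label below.

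The endothelium forms the barrier between blood and tissue, and its cells divide into arteries, capillaries, veins and lymphatic vessels, each with its own genes. In growing tumors, vascular endothelial growth factor (VEGF) acts on receptors of these cells, and invading tip cells lead new sprouts. Endothelial cells also receive leukocytes through selectins and adhesion molecules, and they answer interferon by presenting antigen and by releasing chemokines that draw T cells.

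The genes of the gate are described first, as they chose the members. Pecam1 (platelet endothelial cell adhesion molecule, chr11:106654217-106750628, - strand) gave 477 counts in the Lmo7+/+ cells and 413 in the 52 others. Cdh5 (VE-cadherin of the adherens junction, chr8:104101625-104144511, + strand) gave 296 and 309. Kdr (the main VEGF receptor, chr5:75932827-75978458, - strand) gave 341 and 328. Egfl7, a secreted factor of the vessel wall at chr2:26580014-26593120 on the + strand, and Plvap, which forms the diaphragms of fenestrae and caveolae at chr8:71497765-71511752 on the - strand, gave 347 and 374 counts and 720 and 781 counts. These counts follow from the choice of cells, and positions here and below are from GENCODE M21 on GRCm38.

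Some cells lay close to the limits. A marker sum of 3, just outside, was found in 1 Lmo7+/+ cell and 3 cells of the library labelled Lmo7-/- that met every other criterion, and a sum of 4 or 5, just inside, in 4 and 1 cells. Cells that failed only for lack of a Cdh5 UMI numbered 6 and 9, those that failed only for a Ptprc UMI 9 and 5, and those that failed only for 3 or more C1q UMIs 2 and 9. Within the gate, 20 and 18 cells held 1 or 2 C1q UMIs. Scrublet, which looks for droplets with the RNA of more than 1 cell, marked 2.87% of kept cells in the Lmo7+/+ library and 2.45% in the other. It marked 1 and 0 endothelial cells, and no cell was removed for it.

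Endothelial cells were a small share of both libraries. They made up 0.524% of the kept Lmo7+/+ cells (exact binomial interval 0.410 to 0.661) and 0.438% of the kept cells of the library labelled Lmo7-/- (0.328 to 0.575). The difference was -0.0858 percentage points, with an interval from -0.257 to 0.0881 that includes 0. Among cells without a Ptprc UMI the shares were 0.833% and 0.781%, and among endothelial and fibroblast-gated cells 33.0% and 36.1% (a difference of 3.09 points, -6.78 to 13.1). The sort and the dissociation set how many vessel cells reach a library, so these are shares of cells recovered. The shares include 25 and 15 cells of clusters led by genes of other cell types, described below.

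Genes that mark endothelium in general were tied closely to the gated cells. Of 4906 genes with at least 20 counts, 573 (11.7%) were at least 4-fold higher in CPM in endothelial cells than in all other kept cells, and 498 of these, or 86.9%, were so within each library. All 29 pan-endothelial genes with 20 counts were among the 573, and the list as a whole stood at 13735 CPM in endothelial cells, 269 in macrophages, 329 in T cells and 660 in fibroblast-gated cells. Tie1, an orphan receptor of the angiopoietin system, was 622-fold above the other cells, Esam, a junctional adhesion molecule, 595-fold, and Erg, an ETS transcription factor of the endothelium, 785-fold. Cd34, also a gene of progenitor and stromal cells, was lowest in the list's range at 4.73-fold.

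The 15 genes with the highest ratio among those above 100 CPM were mostly members of the endothelial lists. Mall, a membrane raft protein, led at 1227-fold, followed by Palmd at 794-fold, Erg and the selectin gene Selp at 783-fold. Mmrn2, a vessel matrix protein, stood at 717-fold, Adgrl4, an adhesion receptor of sprouting vessels, at 704-fold, and Gpihbp1, which carries lipoprotein lipase across capillaries, at 694-fold. C130074G19Rik, Cyyr1, Clca2, Esm1, Cldn5 and Ptprb stood between 629.9- and 723-fold. Mmrn1, a gene of lymphatic vessels, stood at 691-fold, with nearly all its counts from a single cluster described below. These ranks pool both libraries. Within the Lmo7+/+ library and the other, Mmrn1 stood at 6591- and 43.5-fold and Selp at 949- and 287-fold. T and NK cell markers summed to 8.66 and 38.4 CPM in the endothelial cells against 7063 in T cells, and macrophage markers to 395 and 234 CPM against 25232 in macrophages.

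The promoter of Egfl7 is shown because it was the gate or pan-endothelial gene with the most counts (721) whose promoter held the letters ACAGGAAG, a strong form of the site of ETS factors such as Erg and Fli1. The window runs from 250 bases before to 50 after the RefSeq start on GRCm38.p6, 5′ to 3′, with the match in capitals.
Egfl7, chr2:26580833-26581132, + strand: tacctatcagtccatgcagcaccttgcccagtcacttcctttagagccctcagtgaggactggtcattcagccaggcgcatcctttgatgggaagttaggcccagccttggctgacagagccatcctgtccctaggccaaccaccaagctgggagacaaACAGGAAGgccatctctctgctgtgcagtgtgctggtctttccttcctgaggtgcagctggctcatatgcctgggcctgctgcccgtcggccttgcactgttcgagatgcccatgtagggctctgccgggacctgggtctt
These letters, read on both strands, occurred in the promoters of 3 of 19 gate and pan-endothelial genes with a window in the promoter set used (Egfl7, Calcrl and Emcn). They occurred in 3.64% of the genes at least 4-fold higher in endothelial cells in each library and in 3.45% of all 27025 promoters of the set. The match is a description of the sequence.

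The gated cells were not uniform. Graph-based clustering of the 123 cells gave 7 clusters, and 4 of them, with 83 cells, were not led by genes of another cell type. Cluster 1 (9 Lmo7+/+ cells and 17 of the library labelled Lmo7-/-) was led by Eln, Olr1, Mgp and Fbln2, held Sele and Ackr1 among its 10 leading genes, and carried the venous list at 20114 CPM against 2689 in the other gated cells. It was called venous-like, although Eln, Mgp and Fbln2 are also known from large vessels and it carried the arterial list at 4914 against 1404 CPM as well. Cluster 2 (12 and 12 cells) was led by Mest, Nes and Apln and carried the tip cell list at 10046 against 4626 CPM, and was called tip-like. Cluster 7 (8 cells and 1 cell) was led by Ccl21a and Mmrn1 and carried the lymphatic list at 13999.7 against 266 CPM, and was called lymphatic-like. Cluster 3 (17 and 7 cells), led by Bmp2 and Depp1, carried the tip cell list at 7867 CPM and the capillary list at 6114 CPM and stayed unnamed.

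Clusters 4, 5 and 6 held 40 cells whose leading genes belong to other cell types, and they stayed unnamed. Cluster 4 (6 and 10 cells) carried Rgs5, a pericyte gene, in 15 of 16 cells and the pericyte list at 6766 against 230 CPM, beside gate markers at 7502 CPM. Cluster 5 (11 and 3 cells) was led by Mmp9 and Hmga2 and carried the gate markers at 2381 CPM against 7938 in the other gated cells. It held 12 genes typical of the other Ptprc-negative cells at 4285 CPM, against 5593 CPM in those cells and 883 in T cells. Of its 28686 UMIs in the library labelled Lmo7-/-, 1 cell held 26016, with 20 UMIs of the gate markers. Fibroblast markers stood at 3925 CPM in cluster 5 and at 2279 CPM in cluster 4, against 569 and 792 in the gated cells outside each. Cluster 6 (8 and 2 cells) was led by Cd52, Plac8 and Il1b and by the heat shock genes Hspa1a and Hspa1b. Its macrophage markers stood at 1146 CPM, against 272 in the other gated cells and 25232 in macrophages. Its T and NK cell markers stood at 240 CPM, all in 1 cell of the library labelled Lmo7-/-, against 7.02 in the other gated cells. It carried the gate markers at 9383 CPM and the pan-endothelial genes at 15007 CPM. The interferon, venous, lymphatic and cell cycle lists are therefore also given without them. The genes that define a cluster are no finding, and since several differ between the libraries, cells per cluster are given only to show what each value rests on.

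**Figure D1:**
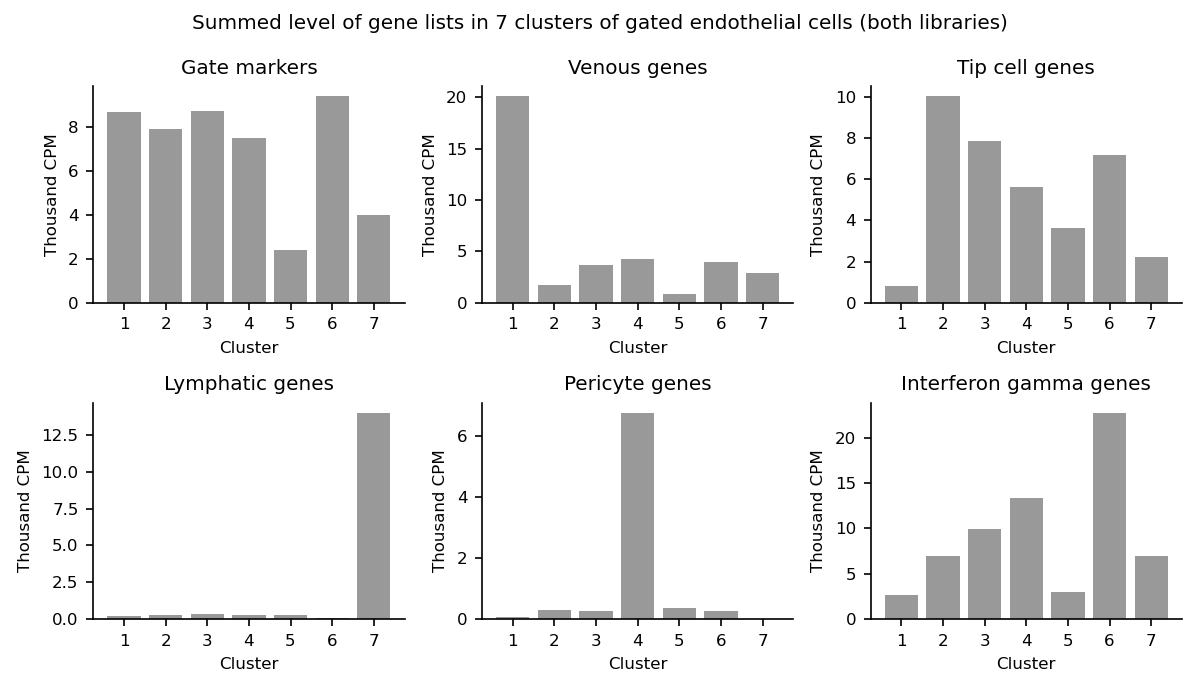
Summed CPM (in units of 1000, bars from 0) of the gate, venous, tip cell, lymphatic, pericyte and interferon gamma lists in the 7 clusters of gated cells, both libraries pooled. The venous list stands out in cluster 1 at 20114 CPM, the tip cell list in cluster 2 at 10046, the pericyte list in cluster 4 at 6766 and the lymphatic list in cluster 7 at 13999.7, while the gate markers are lowest in cluster 5 at 2381.

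Which endothelial genes differed between tumors of the 2 host genotypes was asked by summing counts over the gated cells of each library. Of the 4906 genes, 157 (3.20%) were at least 2-fold higher in the library labelled Lmo7-/- and 270 (5.50%) at least 2-fold lower, together 8.70%. In simulated counts with counting error alone, 4.70% of genes without a true change passed 2-fold in either direction. The median log2 ratio, written throughout as the library labelled Lmo7-/- over Lmo7+/+, was -0.02. Intervals lay above 0 for 281 genes and below 0 for 354. In the 83 cells of clusters 1, 2, 3 and 7 alone, 3641 genes could be compared, and 140 (3.85%) and 229 (6.29%) passed 2-fold. They shared 55 of the 157 higher and 111 of the 270 lower genes.

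Genes common to all endothelium were slightly higher as a sum in the library labelled Lmo7-/-. The gate markers stood at 0.43 (0.34 to 0.51), which is a description, as they chose the cells. The pan-endothelial list gave 4367 and 3969 counts, or 12599 and 15247.5 CPM (0.28, 0.21 to 0.34), with a median of 0.23. Of its 29 tested members 0 passed 2-fold in either direction, against 8.70% of all genes. In this list 7 intervals lay above 0 and 1 below, against 281 and 354 of all 4906 genes. Among its members, Cd34 gave 312 and 356 counts (0.60, 0.38 to 0.83), and Mmrn2, a ligand of the Cd93 receptor, 252 and 274 (0.53, 0.28 to 0.79). Sox7, a SoxF transcription factor, went the other way with 121 and 53 counts (-0.78, -1.27 to -0.30). When cells with any C1q UMI were left out, both sums turned in sign, to -0.028 for the list and -0.017 for the gate markers.

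Interferon gamma response genes were higher as a sum in the library labelled Lmo7-/-. Summed over the list they stood at 6489 CPM in Lmo7+/+ endothelial cells and 10445 CPM in the others, a log2 ratio of 0.69 (0.61 to 0.77). Of the 21 members with 20 counts, 3 were at least 2-fold higher and 0 lower, against 3.20% and 5.50% of all genes. Their median was 0.50, against -0.02 over all genes. Among them 9 intervals lay above 0 and 0 below, against 281 and 354 of all 4906 genes. Without clusters 4, 5 and 6 the ratio was 1.01 (0.90 to 1.12). This left out cluster 6, where the list took a median of 2.27% of UMIs in 8 Lmo7+/+ cells and 0.986% in 2 others. The list took part in the clustering, so the value of 1.01 is no check on that of 0.69.

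Cxcl9, a chemokine that attracts T cells through Cxcr3, took 32.8% of the list's counts. This gene, at chr5:92321347-92328079 on the - strand, gave 605 counts in 38 of 71 Lmo7+/+ cells and 1026 counts in 34 of 52 cells of the library labelled Lmo7-/-. Its level was 1745 and 3942 CPM, a log2 ratio of 1.18 (1.03 to 1.32), and 0.94 without the counts of its richest cell. Here and below, a single gene's ratio of this kind took away that cell's counts of the gene and kept the UMI totals. In clusters 1, 2, 3 and 7 alone, Cxcl9 gave 171 and 626 counts, a log2 ratio of 2.41 (2.17 to 2.67). This subset left out interferon-rich cluster 6 (8 and 2 cells), which held most of the Lmo7+/+ counts of Cxcl9. Interferon genes took part in the clustering, so the value of 2.41 is no check on that of 1.18. When each cell was thinned to 1500 UMIs, which kept 63 and 43 endothelial cells, 38.1% of the Lmo7+/+ cells and 62.8% of the others had a Cxcl9 UMI, against 2.57% and 4.84% of T cells at the same depth, whose medians were 2459 and 2400 UMIs. Over both libraries the share was 58.5% before thinning. The Cxcl9 share in macrophages was 38.2% and 60.9% after thinning.

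Other members varied in size and direction. Cd274, the gene of the checkpoint ligand PD-L1, gave 30 and 48 counts (log2 ratio 1.09, 0.40 to 1.80), and the transcription factor gene Batf2 9 and 15 counts (1.15, -0.14 to 2.52). Iigp1, an immunity-related GTPase, gave 241 and 288 counts (0.67, 0.42 to 0.92). Wars, the tryptophanyl-tRNA synthetase gene, stood at 0.84 (0.07 to 1.63). The GTPases Igtp and Irgm1 stood at 0.64 and 0.57. Intervals for Irf1 (0.19), Gbp5 (0.14) and Gbp6 (-0.23) included 0. Cxcl10, a further Cxcr3 ligand, gave 172 and 204 counts (0.66, 0.36 to 0.96), but 1 cell of the library labelled Lmo7-/- held 93 of these. Without those 93 counts the ratio was -0.22.

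**Figure D2:**
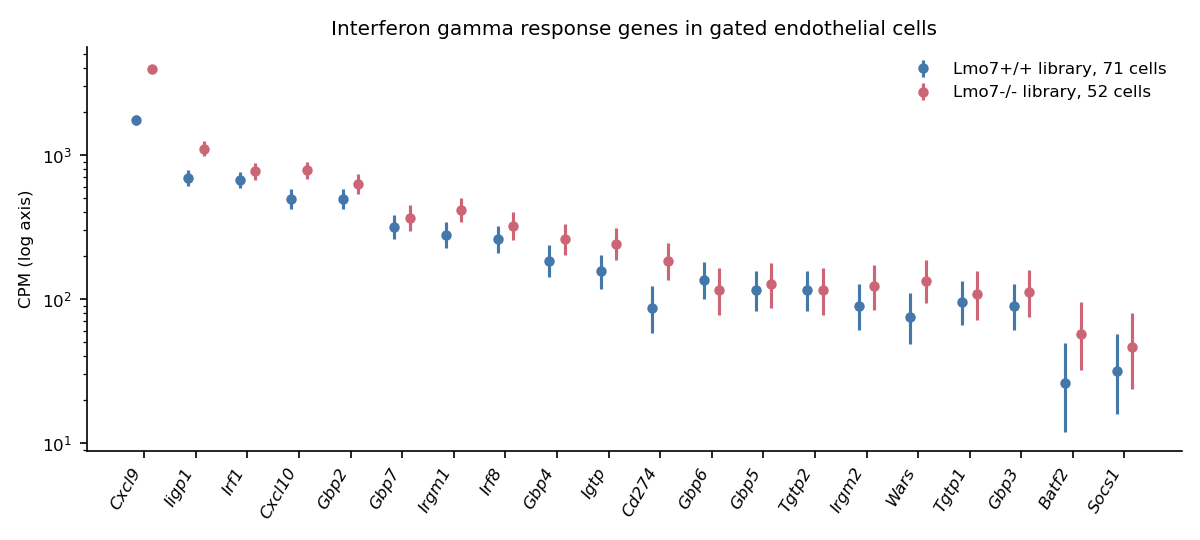
CPM (log axis) of 20 of the 21 interferon gamma response genes with at least 20 counts (1 member is not shown), 1 point for the endothelial cells of each library, with exact Poisson intervals as bars. Cxcl9 shows the highest level in both libraries, 1745 and 3942 CPM, and the bars of the libraries do not overlap for Cxcl9, Cxcl10, Cd274 and Iigp1.

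Promoters of 3 members are shown because they carry both sequence elements through which interferon is known to act and, among such members, had the most counts: Gbp7, Igtp and Gbp5 (205, 117 and 73). Windows are from RefSeq on GRCm38.p6, 250 bases before to 50 after the start, 5′ to 3′. Capitals mark TTCNNNGAA, the palindromic gamma-activated site (GAS), and GAAA, any 2 bases and GAAA again, on either strand, the interferon-stimulated response element (ISRE), and in these windows no GAS match overlaps an ISRE match.
Gbp7, chr3:142530086-142530385, + strand: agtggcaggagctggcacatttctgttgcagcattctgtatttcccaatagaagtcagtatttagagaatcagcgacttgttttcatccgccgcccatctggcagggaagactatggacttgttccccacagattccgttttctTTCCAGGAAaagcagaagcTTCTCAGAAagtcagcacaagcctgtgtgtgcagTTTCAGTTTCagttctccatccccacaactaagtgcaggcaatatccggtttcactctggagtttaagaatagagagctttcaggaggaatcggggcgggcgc
Igtp, chr11:58199306-58199605, + strand: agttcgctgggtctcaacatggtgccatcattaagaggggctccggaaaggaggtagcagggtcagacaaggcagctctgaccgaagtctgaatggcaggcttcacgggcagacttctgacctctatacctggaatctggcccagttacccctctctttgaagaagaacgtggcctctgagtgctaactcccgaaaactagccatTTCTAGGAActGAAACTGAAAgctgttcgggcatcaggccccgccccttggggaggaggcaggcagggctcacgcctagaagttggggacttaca
Gbp5, chr3:142496684-142496983, + strand: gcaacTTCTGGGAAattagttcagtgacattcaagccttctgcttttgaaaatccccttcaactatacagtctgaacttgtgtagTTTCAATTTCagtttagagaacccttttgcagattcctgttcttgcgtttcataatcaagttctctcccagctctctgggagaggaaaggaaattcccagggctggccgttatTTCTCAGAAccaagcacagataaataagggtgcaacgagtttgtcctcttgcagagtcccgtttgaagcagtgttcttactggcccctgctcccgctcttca
Gbp7 and Gbp5 hold 2 GAS matches and 1 ISRE match each, and Igtp 1 of each. Of the list's 23 genes, 15 had a window in the promoter set used, which left out 1 chromosome. Of these, 8 (53.3%) held a GAS and 11 (73.3%) an ISRE, against 8.47% and 3.49% of all promoters in the set. The shares were 6.54% and 3.74% of the 3927 promoters of genes with 20 counts in endothelial cells. Both elements stood in 6 of the 15 and in 0.514% of all promoters. Cxcl9 and Cd274 held neither set of letters in this window, and none of the 19 gate and pan-endothelial promoters held either.

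The difference in the interferon gamma list was not alike in all endothelial cells. In tip-like cluster 2 the list gave 320 counts in 12 Lmo7+/+ cells and 756 in 12 cells of the library labelled Lmo7-/-, a log2 ratio of 1.69 (1.5 to 1.88), and in cluster 3 it gave 428 counts in 17 cells and 695 in 7 (1.35, 1.17 to 1.53). In venous-like cluster 1 it gave 137 counts in 9 cells and 116 in 17, a log2 ratio of -0.53 (-0.90 to -0.16). For Cxcl9 alone cluster 2 held 53 and 368 counts, cluster 3 held 84 and 251, and cluster 1 held 14 and 3. Cluster 6 held 403 of the 605 Lmo7+/+ counts of Cxcl9, and pericyte-marked cluster 4 held 375 of the 1026 counts of the library labelled Lmo7-/-.

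Cell by cell, the list took from 0.0860 to 3.21% of the UMIs of Lmo7+/+ cells with a median of 0.371%, and from 0.0858 to 2.77% in the library labelled Lmo7-/- with a median of 0.630%. The ranges overlapped over nearly their whole extent. Medians were 0.266 and 1.02% in cluster 2, 0.453 and 1.63% in cluster 3, 0.323 and 1.26% in cluster 4, 0.178 and 0.454% in cluster 5 (11 and 3 cells) and 0.328 and 0.892% in cluster 7 (8 cells and 1 cell). They were 0.336 and 0.232% in cluster 1, and 2.27 and 0.986% in cluster 6, the latter from 8 and 2 cells. Cluster 6 carried the list at 22738 CPM against 7227 in the other gated cells. Cells of 1 library are not replicates of a host, so the spread between cells gives no test. Since these genes took part in the clustering, cells were also clustered without the interferon and MHC lists, an alternative chosen after seeing the data: the venous-like cluster kept all of its 26 cells (-0.53), 2 clusters drawn mostly from clusters 2 and 3 gave 2.29 (2.06 to 2.53) and 1.13 (0.92 to 1.35), and one made of all 10 cells of cluster 6 and 10 cells of cluster 3, with 18 and 2 cells, gave -0.60 (-1.13 to -0.11).

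**Figure D3:**
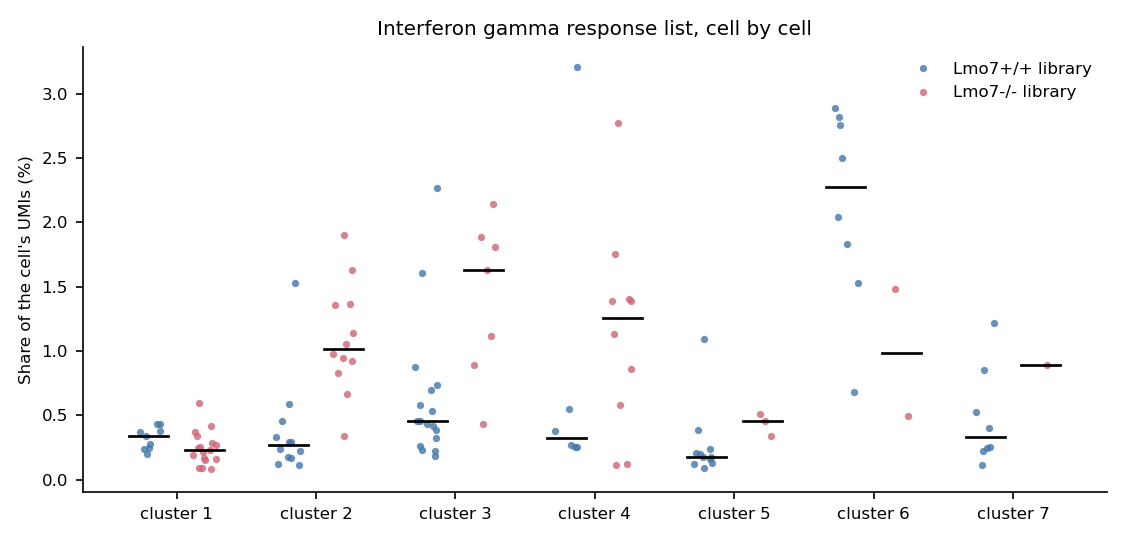
Percent of each endothelial cell's UMIs from the interferon gamma list, 1 point a cell, by cluster and library, with black lines at the medians. Medians of the library labelled Lmo7-/- lie above those of Lmo7+/+ in clusters 2, 3, 4, 5 and 7 (1.02, 1.63, 1.26, 0.454 and 0.892% against 0.266, 0.453, 0.323, 0.178 and 0.328%) and below in clusters 1 and 6 (0.232 and 0.986% against 0.336 and 2.27%).

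Other cell classes of the same tumors are the comparison for this list, each from the same 2 libraries. The log2 ratio was 0.71 (0.69 to 0.72) in macrophages, 0.29 (0.22 to 0.35) in T cells, 0.88 (0.79 to 0.96) in fibroblast-gated cells and 0.97 (0.96 to 0.99) in other Ptprc-negative cells. The endothelial value of 0.69 lay among these. Its level did not: Lmo7+/+ endothelial cells stood at 6489 CPM, against 3087 in macrophages, 2027 in T cells and 2648 in fibroblast-gated cells. Because all classes come from the same library pair, a difference between the tumors behind the 2 libraries and an effect of host genotype cannot be told apart.

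As a sum, MHC class I genes were higher in the library labelled Lmo7-/- as well, at smaller size than the interferon gamma list. The 16 MHC class I and peptide loading genes stood at 16688 and 21878 CPM (0.39, 0.34 to 0.44), with 0 genes past 2-fold in either direction, against 8.70% of all genes. Intervals lay above 0 for 8 of the 16, against 281 of all 4906 genes. H2-D1, a classical class I heavy chain, gave 1766 and 1780 counts from the unequal totals (0.42, 0.33 to 0.52), and its partner B2m gave 1735 and 1773 (0.44, 0.35 to 0.54). Psmb10, a subunit of the immunoproteasome, gave 49 and 64 (0.80, 0.24 to 1.37). Genes of the H2 family are close copies whose reads may be split between members. In macrophages the class I list stood at 0.35 and in T cells at 0.04.

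MHC class II genes stood at 1376 and 2167 CPM in endothelial cells, 1715 over both libraries, against 32282 in macrophages, 2444 in T cells, 1274 in other Ptprc-negative cells and 525 in fibroblast-gated cells. Their log2 ratio was 0.65 (0.48 to 0.83). Of the 5 tested members 0 passed 2-fold in either direction, against 8.70% of all genes. Intervals lay above 0 for 3 of the 5, against 281 of all 4906 genes. H2-Aa gave 129 and 158 counts, H2-Ab1 151 and 172, and Ciita, the master activator of class II genes, only 3 and 6. A single cell of the library labelled Lmo7-/- held 69 of its H2-Aa counts, and without these 69 counts the ratio was -0.12. The list stood at 0.26 when the whole cell with the most of its counts was left out. The mean over cells, in which every cell weighs alike, gave the list -0.35.

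Type I interferon response genes showed no common shift. The list stood at 10072 and 12105 CPM (0.27, 0.20 to 0.34), with 0 of 19 tested members at least 2-fold higher and 3 lower (3.20% and 5.50% of all genes) and a median of 0.09. Ly6a and Ly6e, surface proteins induced by interferon, stood at 0.56 and 0.46, and Irf7, a transcription factor of the type I response, at 0.62 (0.18 to 1.05). Ifi27l2a gave 52 and 8 counts (-2.29, -3.57 to -1.20). Ifit2 (45 and 13 counts, -1.38) and Cmpk2 (32 and 11, -1.13) drew 25 and 24 of their Lmo7+/+ counts from 1 cell.

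Genes of venous and activated postcapillary endothelium, where leukocytes leave the blood, were lower as a sum in the library labelled Lmo7-/-. In the median gated cell the list took 0.270% of the UMIs in Lmo7+/+ and 0.276% in the other library, but clusters differ in cell numbers. Within clusters, medians were lower in the library labelled Lmo7-/- in cluster 1 (2.58 and 1.08%), 3 (0.303 and 0.141%), 4 (0.650 and 0.136%) and 5 (0.0867 and 0.0671%). They were higher in cluster 2 (0.106 and 0.160%), 6 (0.287 and 0.770%, 8 and 2 cells) and 7 (0.288 and 0.317%, 8 cells and 1 cell). The sum was 6656 and 3849 CPM, a log2 ratio of -0.79 (-0.90 to -0.68), with 1 of 13 tested members at least 2-fold higher and 3 lower, against 3.20% and 5.50% of all genes, and a median of -0.50. In clusters 1, 2, 3 and 7 the list stood at -0.72 (-0.84 to -0.60). In cluster 2 alone it stood at 0.021 (-0.35 to 0.39), and in cluster 3 alone at -1.19 (-1.54 to -0.85). Selp (P-selectin, chr1:164115264-164150026, + strand) gave 561 counts in 21 Lmo7+/+ cells and 61 counts in 16 cells of the library labelled Lmo7-/-, or 1619 and 234 CPM (-2.79, -3.19 to -2.40). One Lmo7+/+ cell held 226 of the 561, and without these 226 counts the ratio was -2.04. After thinning, the share of cells with a Selp UMI was 23.8% and 30.2%, against 0.286% and 0.605% of T cells, and 30.1% of all gated cells before thinning. The CPM and the share of cells with a UMI thus stood in opposite order, and no order is read from the share.

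The ratios of Ackr1 and Sele depended on single cells. Ackr1, the chemokine-binding receptor of venules, gave 180 and 46 counts (-1.56, -2.06 to -1.08). Of the Lmo7+/+ counts 120 came from 1 cell, and the ratio was 0.03 without these 120, with that cell's other UMIs kept in the total. Sele (E-selectin) gave 54 and 22 counts and stood at -0.88, and at 0.17 without the counts of its richest cell. Il6st, the shared receptor of the interleukin-6 family, stood at -1.11 (195 and 68 counts), Lrg1 at -0.67, and the adhesion molecules Vcam1 and Icam1 at -0.75 and -0.42. Vwf, the von Willebrand factor gene, gave 247 and 179 counts (-0.05, -0.34 to 0.23), and Ephb4, a receptor that marks veins, was higher (37 and 60 counts, 1.11, 0.50 to 1.74). Within venous-like cluster 1, which held 9 and 17 cells, the list stood at -1.46 (-1.60 to -1.32), and with the cell richest in the list left out of all gated cells at -0.41.

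Csf3 and Il6 gave most of their Lmo7+/+ counts in cluster 1. Csf3, the granulocyte colony-stimulating factor gene, gave 82 counts in 11 Lmo7+/+ cells and 2 in 1 cell of the library labelled Lmo7-/- (-4.94, -8.01 to -3.05), and cluster 1 held 67 of the 82. One Lmo7+/+ cell held 38 of the 82, and the ratio was -4.05 without these 38 counts. Il6, an inflammatory cytokine, gave 133 and 31 counts (-1.69, -2.30 to -1.12), of which cluster 1 held 97 and 5. Atf3, a stress-induced transcription factor, gave 239 and 81 counts (-1.15). The leukocyte adhesion and recruitment list, which holds Cxcl9 beside Selp, stood at 0.07, with a median of -0.32, and at -0.33 without Cxcl9. Of its 18 tested members 1 was at least 2-fold higher and 5 lower (Selp, Ackr1, Cd99l2, Ccl2 and Il6), against 3.20% and 5.50% of all genes. The sum of 0.07 pooled opposite values, with -1.57 (-1.73 to -1.42) in cluster 1, 1.22 (1.05 to 1.40) in cluster 2 and 0.57 (0.39 to 0.74) in cluster 3.

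Lymphatic markers were lower in the library labelled Lmo7-/-, where cluster 7 held 121 of the 121 Lmo7+/+ counts of Mmrn1 and 180 of the 180 of Ccl21a. The list stood at 1771 and 530 CPM (-1.74, -2.02 to -1.47), with 6 of 7 tested members at least 2-fold lower, against 5.50% of all genes. Prox1, the master regulator of lymphatic identity at chr1:190118035-190170714 on the - strand, gave 36 and 6 counts, Lyve1, a hyaluronan receptor, 71 and 9, and Mmrn1 121 and 7 (-3.70, -5.04 to -2.61). One Lmo7+/+ cell held 38 of the Lyve1 counts, and the Lyve1 ratio moved from -2.57 to -1.46 without these 38 counts. Mmrn1 stood at -3.06 without the counts of its richest cell. Ccl21a, a chemokine of lymphatic vessels, gave 180 counts in 6 cells and 38 in 1 cell. Reln was at 19 and 0 counts, a log2 ratio of at most -2.25 with 3 counts taken in place of 0. Cluster 7 held 8 Lmo7+/+ cells and 1 other, and in clusters 1 to 3 alone the list gave 46 and 55 counts (0.57, -0.02 to 1.17). A number of 9 lymphatic-like cells cannot show whether lymphatic vessels differed between the tumors.

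Capillary genes were higher as a sum in the library labelled Lmo7-/-, with 6 intervals above 0 and 2 below, against 281 and 354 of all 4906 genes. The summed level was 4126 and 5659 CPM (0.46, 0.35 to 0.56), with 2 of 10 tested members at least 2-fold higher and 0 lower, against 3.20% and 5.50% of all genes, and a median of 0.56. Cd36, a fatty acid transporter and receptor of thrombospondin, gave 62 and 140 counts (1.59, 1.15 to 2.04), with a UMI in 15.9 and 34.9% of thinned cells against 1.14 and 0.605% of T cells, and in 32.5% of all gated cells before thinning. Cd300lg, a lipid-binding receptor of capillaries, stood at 1.05 (0.57 to 1.54). Gpihbp1, at chr15:75596628-75599481 on the + strand, gave 169 and 239 counts (0.91, 0.62 to 1.21), and Fabp4, a fatty acid carrier, 192 and 285 (0.98, 0.71 to 1.25). Aqp1, a water channel, and Fabp5, a related fatty acid carrier, stood at -0.29 and -0.96. The list was higher in cluster 2 (0.74) and cluster 3 (0.48) and lower in cluster 1 (-0.51).

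Arterial genes gave few counts, with 12 of 17 listed genes reaching 20. The list stood at 1734 and 2263 CPM (0.38, 0.22 to 0.55). The 2 members at least 2-fold higher, against 3.20% of all genes, were Fbln5, an elastic fibre protein (83 and 125 counts, 1.00), and Stmn2 (11 and 25 counts, 1.60, 0.52 to 2.77). Cluster 1, with 9 and 17 cells, held 51 and 120 of the Fbln5 counts. Gja5, the arterial connexin, was at 0 and 3 counts, and Hey2 at 0 in both. Notch genes, which set arterial fate and restrain tip cells, stood at 0.22 (0.05 to 0.38), or -0.03 without cells holding a C1q UMI. Dll4, the tip cell ligand, gave 183 and 148 counts (0.11, -0.22 to 0.43), and its feedback target Nrarp 58 and 79 (0.86, 0.35 to 1.37).

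Tip cell genes showed no common direction. With the gate relaxed to a marker sum of 3, which adds 4 cells, or closed to cells with any C1q UMI, the sign of their sum turned (-0.02 and -0.08). Together they gave 5724 and 6385 CPM (0.16, 0.06 to 0.25), with 1 of 17 tested members at least 2-fold higher, 1 lower (3.20% and 5.50% of all genes) and a median of 0.11. Apln (apelin, chrX:48025146-48034853, - strand) gave 312 and 167 counts (-0.49, -0.77 to -0.21), and Adm (adrenomedullin) 56 and 23 (-0.87, -1.64 to -0.15). Angpt2, a ligand that destabilizes vessels, gave 132 and 180 counts (0.86, 0.53 to 1.20), of which 29 and 104 lay in cluster 2. Esm1 (endocan) stood at 0.37 (0.09 to 0.64). Pgf (placental growth factor) gave 33 and 3 counts (-3.05, -5.40 to -1.37), and Ramp3, a subunit of the adrenomedullin receptor, 4 and 16 (2.41, 0.78 to 4.45).

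Receptors of the VEGF and angiopoietin systems were highest in the gated cells among the 5 classes compared. Flt1, a VEGF receptor that also acts as a decoy, stood at 1691 CPM in endothelial cells against 123 in fibroblast-gated cells, Tie1 at 661 and Flt4, the receptor of Vegfc, at 331. Kdr, at 1102 CPM, was part of the gate, so its rank was set by the choice of cells. Angpt2 stood at 514 CPM in endothelial cells and at 0.709 in macrophages. Vegfa, the main ligand, showed the other order, at 42.8 CPM in endothelial cells against 493 in macrophages, 344 in fibroblast-gated cells and 283 in other Ptprc-negative cells.

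**Figure D4:**
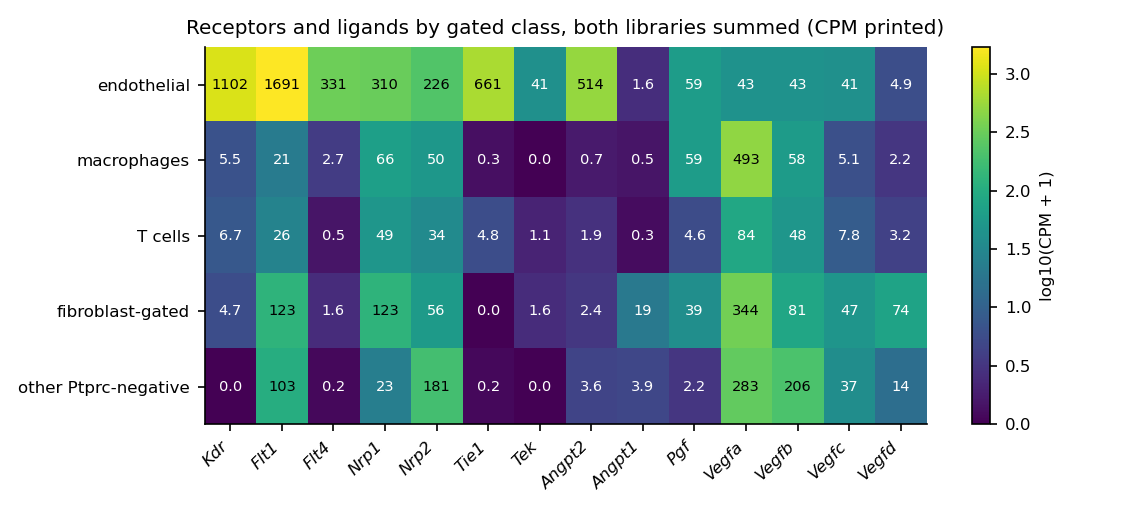
Heat map of log10(CPM + 1) for 14 receptors and ligands of the VEGF and angiopoietin systems in 5 gated cell classes, both libraries pooled, with the CPM printed in each tile. Flt1, Tie1 and Angpt2 are brightest in endothelial cells (1691, 661 and 514 CPM), as is Kdr, a gate gene, and Vegfa in macrophages (493).

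Between the libraries the VEGF list stood at 6509 and 7272 CPM (0.16, 0.07 to 0.25), with 0 of 19 tested members at least 2-fold higher and 3 lower, against 3.20% and 5.50% of all genes. Flt1 gave 530 and 496 counts (0.32, 0.14 to 0.50), Kdr, a gate gene, 341 and 328 (0.36, 0.13 to 0.58), and Tie1 213 and 188 (0.23, -0.06 to 0.52). The 3 lower members were Vegfa (22 and 4 counts, -2.05), Pgf, and Rcan1, a calcineurin regulator induced by VEGF (103 and 15 counts, -2.37, -3.26 to -1.58). Spry4, a feedback inhibitor of receptor tyrosine kinases, stood at 0.90 (0.34 to 1.47). The sum for the VEGF list turned to -0.03 with a marker sum of 3.

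BMP and TGF-beta genes stood at 3399 and 2628 CPM (-0.37, -0.51 to -0.23), with 1 of 15 tested members at least 2-fold higher and 2 lower, where 3.20% and 5.50% of all genes were. The higher one was Id1, an immediate target of BMP receptors, with 11 and 35 counts (2.08, 1.07 to 3.21). Among the lower ones, Bmp4, a ligand of the pathway, gave 32 and 8 counts (-1.59, -2.92 to -0.44). Eng and Acvrl1, receptors of the pathway, gave 190 and 130 and 44 and 33 counts, with intervals that include 0.

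Among the junction, Lmo7 partner and basement membrane genes tested, 0 passed 2-fold, against 8.70% of all genes. The list of junction genes, of which 13 were tested, stood at 0.17 (0.05 to 0.29) with a median of -0.012, or -0.02 with a marker sum of 3. Cldn5, the main claudin of endothelial tight junctions, was the highest, with 116 and 169 counts (0.96, 0.61 to 1.31), while Esam (0.12) and the beta-catenin gene Ctnnb1 (-0.01) had intervals that include 0. Of the genes named as Lmo7 and its partners, such as Afdn (0.47, -0.41 to 1.37), Actn1 (0.09) and Actn4 (0.16), 7 were tested, and the list stood at 0.12 (-0.04 to 0.28). Basement membrane genes stood at 21439 and 27541 CPM (0.36, 0.31 to 0.41), with 6 of 16 intervals above 0 and 0 below, against 281 and 354 of all 4906 genes. The list of basement membrane genes stood at 0.89 (0.73 to 1.05) in cluster 1. Sparc, a collagen-binding glycoprotein, took 46.2% of their counts (3166 and 3579, 0.59, 0.52 to 0.66), and the ratio was 0.16 without it. Col4a1 and Col4a2, the chains of type IV collagen, stood at 0.13 and 0.24.

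**Figure D5:**
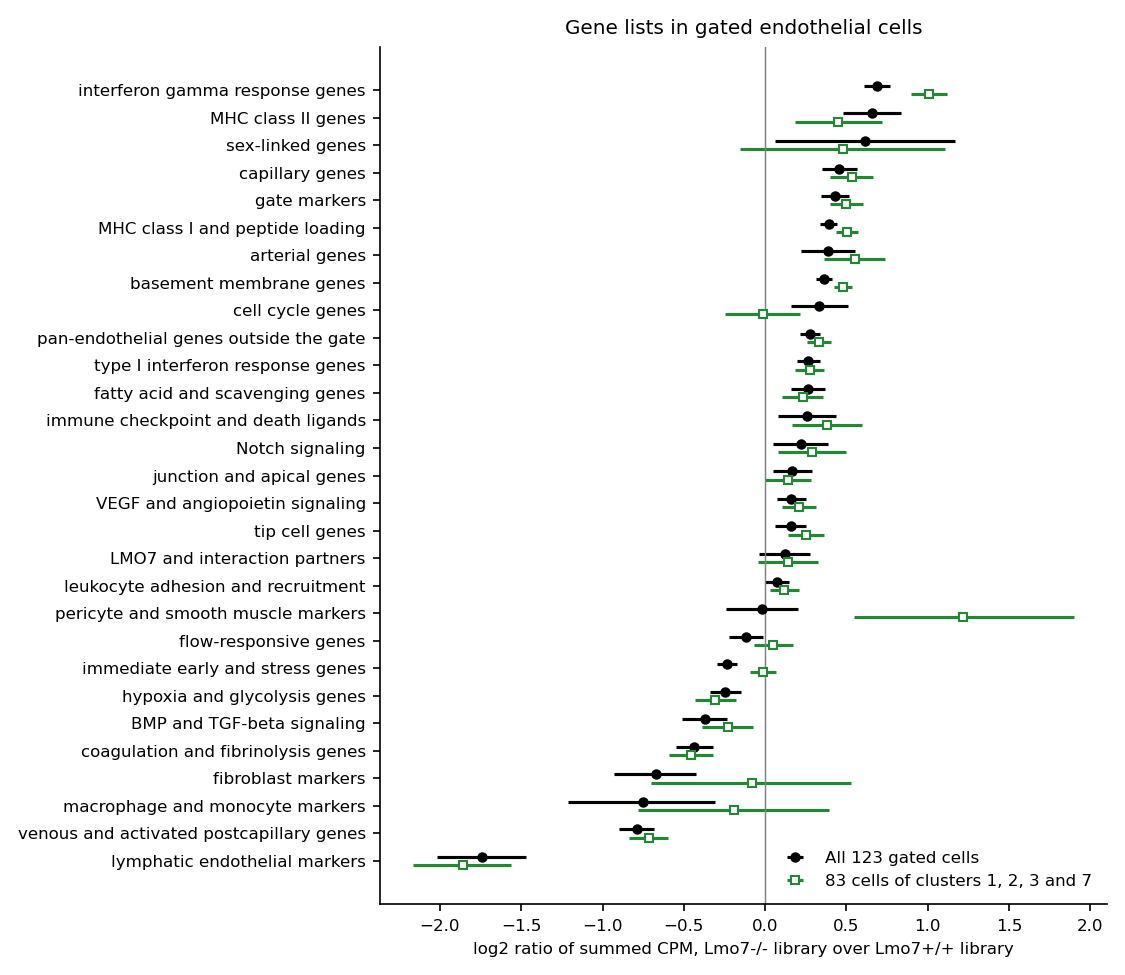
Log2 ratio of summed CPM, the library labelled Lmo7-/- over Lmo7+/+, for gene lists with at least 50 counts in each library, with 95% intervals of counting error, in all 123 gated cells (black) and in the 83 cells of clusters 1, 2, 3 and 7 (green squares). The interferon gamma list lies at 0.69 and 1.01, the venous list at -0.79 and -0.72 and the lymphatic list at -1.74 and -1.86.

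Hypoxia and glycolysis genes were lower as a sum in the library labelled Lmo7-/- by a small margin. The list stood at 6598 and 5567 CPM (-0.25, -0.34 to -0.15), with 0 of 17 tested members at least 2-fold higher, 5 lower (3.20% and 5.50% of all genes) and a median of -0.50. Ndrg1, a hypoxia-induced gene, gave 132 and 54 counts (-0.88, -1.36 to -0.41), and Bnip3, Egln3, P4ha2 and Ero1l were at least 2-fold lower beside Vegfa, with 8 to 18 counts in the library labelled Lmo7-/-. Gapdh, which took 29.6% of the counts, stood at -0.06. The sign turned with a marker sum of 3 (0.11) and without cells holding a C1q UMI (0.07). In macrophages the same list stood at 0.14, in T cells at 0.10 and in fibroblast-gated cells at -0.21.

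Cell cycle genes stood at 1776 CPM in endothelial cells, against 1191 in fibroblast-gated cells, 2657 in macrophages, 3489 in other Ptprc-negative cells and 4542 in T cells. The list stood at 0.33 (0.16 to 0.51), with 1 of 18 tested members at least 2-fold higher and 3 lower (3.20% and 5.50% of all genes), and its sign was lost without clusters 4, 5 and 6 (-0.02) and without its richest cell (-0.19). Immediate early and stress genes, which dissociation induces, stood at -0.24 (-0.30 to -0.17), with 0 of 18 tested members at least 2-fold higher and 1 lower (3.20% and 5.50% of all genes), and at -0.014 (-0.092 to 0.064) without clusters 4, 5 and 6. Coagulation genes stood at -0.43 (-0.55 to -0.32), among them Thbd, the thrombomodulin gene (44 and 13 counts, -1.35, -2.36 to -0.43). Flow-responsive genes, with 29.0% of their counts from the gate gene Pecam1, stood at -0.12 (-0.22 to -0.01), and at 0.051 without clusters 4, 5 and 6. Fatty acid and scavenging genes stood at 0.26 (0.16 to 0.36) as a sum but at -0.13 as a median. Of their 13 tested members 3 had intervals above 0 and 3 below, against 281 and 354 of all 4906 genes. Checkpoint ligands stood at 0.26 (0.08 to 0.44).

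Among the genes with at least 50 counts, the 10 highest ratios were led by matrix genes. Fbln2, a fibulin, gave 83 and 275 counts (2.14, 1.78 to 2.51), and Eln, the elastin gene at chr5:134702593-134747323 on the - strand, 103 and 317 (2.03, 1.71 to 2.37). Both lead cluster 1, which held 9 and 17 cells and gave 50 and 269 counts of Fbln2 and 81 and 313 of Eln. Stc1 (stanniocalcin) gave 137 and 281 counts (1.45, 1.15 to 1.75), Serpina3g, an interferon-induced protease inhibitor, 47 and 94 (1.41, 0.89 to 1.95), and the collagen genes Col5a2 and Col13a1 stood at 1.56 and 1.44. Tmem158, Igfbp5 and Ctsh, with Cd36, completed the 10 at 1.33 to 1.64.

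The 10 lowest ratios were those of Csf3, lymphatic and venous genes, contractile genes and a few others. After Csf3 came Fgl2, a gene of cluster 7 in these cells (78 and 3 counts, -4.29, -6.60 to -2.69), then Mmrn1, Meox1 (55 and 5 counts, -3.05), Fxyd6, Selp, Lyve1 and Clca3a1. Tagln and Acta2, genes of smooth muscle and pericytes, gave 46 and 5 counts (-2.79) and 104 and 15 counts (-2.38), with 49 of the Acta2 counts in 1 Lmo7+/+ cell. Without the counts of the richest cell of each gene, Tagln stood at -1.97 and Acta2 at -1.46. Cluster 4 held 103 and 10 of the Acta2 counts. The pericyte list as a whole stood at 1142 and 1129 CPM (-0.02, -0.24 to 0.20), with 2 of 7 tested members at least 2-fold higher and 2 lower (3.20% and 5.50% of all genes) and a median of 0.43. In clusters 1, 2, 3 and 7 it stood at 133 and 307 CPM (1.21, 0.55 to 1.90).

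Genes typical of other cell types differed between the 2 sets of gated cells as well. The 12 genes chosen as higher in the other Ptprc-negative cells summed to 1186 and 1886 CPM, and to 919 and 1362 CPM in clusters 1, 2, 3 and 7. Ccnd1 made up most of this (894 and 1164 CPM), Tinagl1 was higher in endothelial cells (237 CPM) than in those cells (176), and Hmga2 stood at 2.89 and 173 CPM. In cluster 5 Hmga2 was found in 3 cells, all of the library labelled Lmo7-/-, at 540 CPM against 7.56 in the other gated cells. One of these 3 cells held 26016 of their 28686 UMIs, with only 20 UMIs of the gate markers. This cell is part of the 260305 UMIs behind the pooled values of its library. Fibroblast markers stood at 1189 and 745 CPM (-0.67, -0.93 to -0.42), and macrophage markers at 395 and 234 CPM (-0.75, -1.21 to -0.31), led by Fcer1g with 24.7% of their counts. The gate limited both lists, since it capped Col1a1, Col1a2 and Col3a1, with Col1a1 at 23.9% of the fibroblast counts, and the C1q genes. In clusters 1, 2, 3 and 7 the lists stood at 248 and 235 CPM and 282 and 247 CPM. The sign of the fibroblast list turned in clusters 1 to 3 alone (0.90, 0.08 to 1.75). It also turned with a marker sum of at least 3, without cells holding a C1q UMI and without the cell with the most counts. Of the 14 macrophage markers 4 reached 20 counts, and Adgre1, which defines macrophages, gave 2 and 1. The T cell receptor gene Trac gave 2 and 2. Platelet and erythroid markers gave 6 and 3 counts, and epithelial markers 1 and 1. The part of this RNA in the endothelial results was not tested beyond the values given with and without clusters 4, 5 and 6.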

How the data were processed

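Single cells of 1 tumor library per host genotype were profiled by 3' sequencing of RNA with UMIs. The deposited files held raw UMI counts per gene and cell, which the authors made with Cell Ranger (2.1.1 and mm10 per the submitters' processing notes, while the matrix header gives software version 3.0.0). Symbols were taken from the files, and 38 symbols had more than 1 of the 32285 gene identifiers.

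Counts were summed over the gated cells of each library and scaled to CPM. Levels are not scaled to gene length, so genes are compared between libraries or cell classes. The log2 ratio carries an exact (Clopper-Pearson) interval for the split of counts, and 3 counts stood in place of 0. A gene's ratio without its richest cell lacked that cell's counts of the gene, in the library where its level was higher. The UMI totals were kept for it, whereas for lists the whole cell was left out. Genes with at least 20 counts were compared, and at least 2-fold counted as higher or lower. With 1 library per genotype no p-value was computed. Macrophages had at least 10 C1q UMIs and T cells at least 3 UMIs of Cd3d, Cd3e, Cd3g and Trac, and fibroblast-gated cells at least 2% collagen UMIs. Other Ptprc-negative cells held no UMI of Ptprc or of the 5 gate genes.

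The 123 cells were log-normalized to 10000, and clustered on 1000 variable genes, 15 principal components and 10 neighbours at resolution 1 (scanpy 1.11.5, igraph 0.11.9). For shares of cells with a UMI, cells were thinned to 1500 UMIs. Scrublet marked doublets, and none was removed. TMM scaling used edgeR 4.0.16. Positions came from GENCODE M21 and promoters from RefSeq, with the windows of 1 chromosome left out of the promoter set.

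The members and the 33 gene lists were chosen with earlier results of these data known. The named genes were the 10 highest and 10 lowest ratios among genes with at least 50 counts and the 15 genes highest over the other cells among those above 100 CPM, beside list members. The motifs, the genes whose promoters are printed, the split by clusters and the 12 genes of other Ptprc-negative cells (at least 100 CPM and 5-fold, after a stricter limit found none) were chosen after seeing the data. The computation of ratios and intervals was tested on simulated counts with counting error alone. There, 4.70% of genes without a true change and 54.4% of those changed 2-fold passed the 2-fold limit. The intervals covered the true ratio for 96.3% of genes. Values of some single list members are not reported here.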

Additional observations from a re-analysis of the deposited data

Results flagged for a closer look

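Between the libraries, venous-like cluster 1 went one way and clusters 2 or 3 the other for several lists. For the interferon gamma list, cluster 6 had the direction of cluster 1 (medians 2.27% in 8 Lmo7+/+ cells and 0.986% in 2 others). One of these 2 held all the T and NK cell marker counts of cluster 6, which stood at 240 CPM. None of these differences was tested, and each rests on 9 and 17 cells of cluster 1, 12 and 12 of cluster 2 and 17 and 7 of cluster 3. For the interferon gamma list, the log2 ratio of cluster 1 was -2.22 relative to that of cluster 2 and -1.88 relative to that of cluster 3. For MHC class II genes these differences were -2.28 and -1.48, for type I interferon genes -1.03 and -1.25, for capillary genes -1.25 and -0.996, and for leukocyte adhesion and recruitment genes -2.80 and -2.14. Pan-endothelial genes differed by -0.71 between clusters 1 and 2 (-0.17 against 0.54), VEGF and angiopoietin genes by -1.08 (-0.43 against 0.65), and tip cell genes by -1.93 (-1.46 against 0.47). Cell cycle genes went the other way, at 2.36 in cluster 1 and -0.76 in cluster 2, a difference of 3.12, with 18 and 113 counts in cluster 1.

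Cells below the filters also held endothelial markers. Of 2666 such Lmo7+/+ cells 5 passed the marker gates (0.188%, exact interval 0.0609 to 0.437, against 0.113% that a count of 0 would allow), with a median of 881 UMIs. Of 3303 such cells in the library labelled Lmo7-/- 10 passed (0.303%, 0.145 to 0.556, against 0.0908%), with a median of 743.5 UMIs.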

How the results depend on the processing

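All values are log2 ratios, the library labelled Lmo7-/- over Lmo7+/+, unless called a number of genes, and for none of them was the cause of the change tested. The interferon gamma list stayed above 0 in every alternative run, from 0.32 to 1.14, and the venous list below 0. With the strict cell filter the venous list stood at -0.94 and MHC class II at 0.91. With a marker sum of at least 3 the lists stood at 0.053 (pan-endothelial), -0.020 (tip), -0.99 (venous), 0.26 (capillary), -0.034 (VEGF), -0.019 (junction), 0.16 (basement membrane), -0.14 (adhesion), 0.50 (interferon gamma), 0.082 (type I), 0.66 (cell cycle), 0.11 (hypoxia) and 0.43 (fibroblast). Without cells holding a C1q UMI they stood at -0.017 (gate markers), -0.028 (pan-endothelial), -0.077 (tip), -1.15 (venous), 0.32 (capillary), -1.21 (lymphatic), -0.025 (Notch), 0.063 (basement membrane), -0.24 (adhesion), 0.30 (MHC class I), 1.00 (MHC class II), 0.42 (interferon gamma), 0.18 (type I), 0.90 (cell cycle), 0.070 (hypoxia), -0.19 (sex-linked, with all counts from Xist) and 0.90 (fibroblast). The mean of per-cell CPM, in which every cell weighs alike, gave 349 genes higher, and 0.024 (tip), -0.24 (venous), -1.45 (lymphatic), 0.30 (basement membrane), 0.19 (MHC class I), -0.35 (MHC class II), 0.32 (interferon gamma) and 0.10 (type I).

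The next 4 alternatives were chosen after seeing the data. Without clusters 4, 5 and 6 the values were 0.48 (basement membrane), 0.50 (MHC class I), 0.45 (MHC class II), 1.01 (interferon gamma), -0.015 (cell cycle) and 0.051 (flow). This setting and the next left out cluster 6, which was rich in the interferon gamma list. As that list took part in the clustering, neither setting is a check on it. In clusters 1, 2 and 3 alone 176 genes were lower, and the lists stood at 0.33 (capillary), 0.57 (lymphatic), 0.58 (MHC class I), 0.30 (MHC class II), 1.14 (interferon gamma), 0.46 (type I), -0.12 (cell cycle), -0.39 (hypoxia), 0.0067 (stress), 0.12 (flow) and 0.90 (fibroblast). Without each list's most abundant gene they stood at -0.48 (venous), 0.66 (capillary), 0.16 (basement membrane), -0.33 (adhesion), 0.46 (interferon gamma) and 0.34 (type I). Without the cell with the most counts they stood at 0.021 (tip), -0.41 (venous), -1.10 (lymphatic), 0.32 (MHC class I), 0.26 (MHC class II), 0.49 (interferon gamma), 0.37 (type I), -0.19 (cell cycle), -0.44 (hypoxia) and 0.18 (fibroblast).

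A minimum of 10 counts gave 402 genes higher and 650 lower, and a minimum of 50 counts 30 higher, 60 lower and 351 at least 4-fold over the other cells. The depth of 346607 and 260305 UMIs leaves a gene with 20 counts open to large counting error. No paired analysis was possible because each genotype was 1 library.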
